A study of Rattus norvegicus with 11 samples.

Results

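Calcium/calmodulin-dependent protein kinase II (CaMKII) and its activator calmodulin are described here through 6 of the 17257 genes measured in rat ventricular myocytes. The members were chosen by gene symbol, as the rows of the deposited table named Camk2a, Camk2b, Camk2d and Camk2g for the kinase and Calm2 and Calm3 for calmodulin, and all 6 had reads. The females were 5 and the males 6 wild-type Sprague Dawley rats aged 3 to 4 months. Their ventricular cells were isolated with a Langendorff apparatus, kept on dishes for 45 minutes with no treatment, flash frozen and sequenced as ribosomal RNA-depleted total RNA. The comparison is between the sexes.

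Calmodulin is a small calcium sensor that several genes encode as the same protein. When calcium rises in each heartbeat it binds calmodulin, which then opens the autoinhibited CaMKII holoenzyme, and a kinase kept open by autophosphorylation or oxidation stays active after calcium falls. In ventricular myocytes the delta kinase is the main form and gamma the next, whereas alpha and beta are best known from brain. The kinase phosphorylates phospholamban, the ryanodine receptor and ion channels, and its overactivity is linked to arrhythmia and heart failure.

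The table held, for each gene, the authors' mean normalized count in females and in males, that is, reads divided by a size factor for each library and averaged, with a DESeq p-value. Of the 17257 genes 13346 had reads. The 11 size factors could be read from the means and lay between 0.972 and 1.14 in the female libraries and between 0.811 and 1.17 in the male libraries, and depth was not analysed here beyond them. Cardiac myocyte markers had high counts, as the labelled cell type has, with female means from 76010 for Actn2 upwards and male means from 62239, again for Actn2. Of 7 such markers 6 were in the table, and 2 of them, Myh6 and Ryr2, were higher in females. Markers of other cells were present too, and some of those of fibroblasts differed by sex. Of 6 measured fibroblast markers 3 were lower in females (Col1a1, Col3a1 and Postn) and none was higher. Dcn, Pdgfra and Lum had folds below 1 and were not called, and Col1a2 was listed at 0 in both sexes. The summed means of the fibroblast markers were 8936 in females and 18046 in males. Col3a1 alone had means of 3914.72 in females and 10722.5 in males. Of 6 endothelial markers Vwf alone was called, as higher, with sums of 16400 in females and 15668 in males. The smooth muscle, leukocyte and neuronal lists held no called gene.

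None of the 6 members differed between the sexes at an adjusted p under 0.05 per the authors' deposited table (DESeq, Benjamini-Hochberg adjustment over 13346 genes), where 14.5% of all genes did. At an unadjusted p under 0.05, which 27.3% of all genes reached, 1 of the 6 passed, and this was Camk2d. The deposited fold changes were below 1 for Camk2d, Calm2 and Calm3 and above 1 for Camk2a, Camk2b and Camk2g. With 11 libraries and only group means for most genes, the approximate 95% intervals given below were computed from each deposited fold change and p-value by treating the p as a normal deviate.

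**Figure D1:**
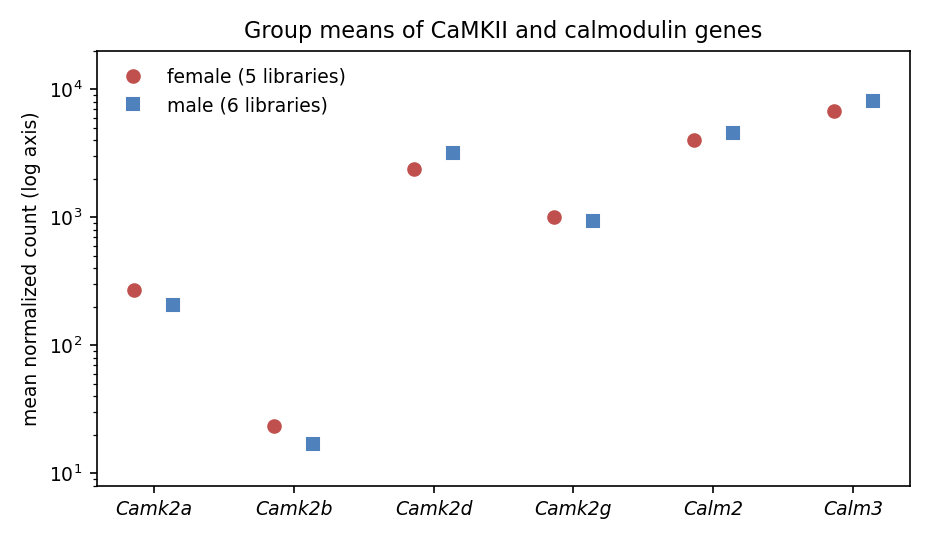
Mean normalized count of the 6 genes on a log axis, in females (red circles, 5 libraries) and males (blue squares, 6 libraries). The female mean lies below the male mean for Camk2d, Calm2 and Calm3 and above it for Camk2a, Camk2b and Camk2g, and counts are not corrected for transcript length, so heights compare the sexes within a gene and not the genes with each other.

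Camk2d, which encodes the delta kinase that predominates in the ventricle, was the member nearest to a call. Its mean normalized count was 2385 in females and 3159 in males, a fold of 0.755 (female over male) per the authors' deposited table. On the log2 scale the difference was -0.41, with an approximate 95% interval from -0.72 to -0.09. The DESeq p was 0.0107 and its adjusted value 0.0655, so the gene missed the threshold. Adjusted only over 9116 genes whose mean was 50 or more, the adjusted p was 0.0465 and Camk2d passed. Its value in each library could not be read from the means, so the spread between animals and the overlap of the sexes are not shown. The row sums all transcripts of the gene, and the nuclear and cytosolic splice forms of the delta kinase, delta-B and delta-C, cannot be told apart in it. In bulk RNA, fewer cells of a type and less RNA per cell cannot be told apart either. The 6 measured fibroblast markers given above also had folds below 1, with 3 of them called, and their part in the Camk2d value was not tested.

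Camk2g encodes the gamma kinase, the other form established in heart muscle. Its mean normalized count was 1007 in females and 936 in males per the authors' deposited table. The log2 fold change was 0.11 with an approximate 95% interval from -0.23 to 0.45, which as a fold is from 0.850 to 1.36. The adjusted p from DESeq was 0.799.

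Camk2a, the alpha kinase of neurons, had a mean normalized count of 270.1 in females and 207 in males per the authors' deposited table, a fold of 1.31. Its log2 fold change of 0.39 had an approximate 95% interval from -0.02 to 0.79, and the adjusted p from DESeq was 0.215. The Camk2a gene also gives rise, in skeletal muscle, to alpha-KAP, an anchoring protein without a kinase domain, and a count per gene does not separate the products. Of the neuronal and Schwann cell markers, Snap25 was listed at 0 in females and had a mean of 0.710 in males, and Syn1 had means of 2.75 in females and 1.03 in males. The summed means of all 6 such markers were 37.2 in females and 35.1 in males. Their part in the Camk2a value was not tested.

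**Figure D2:**
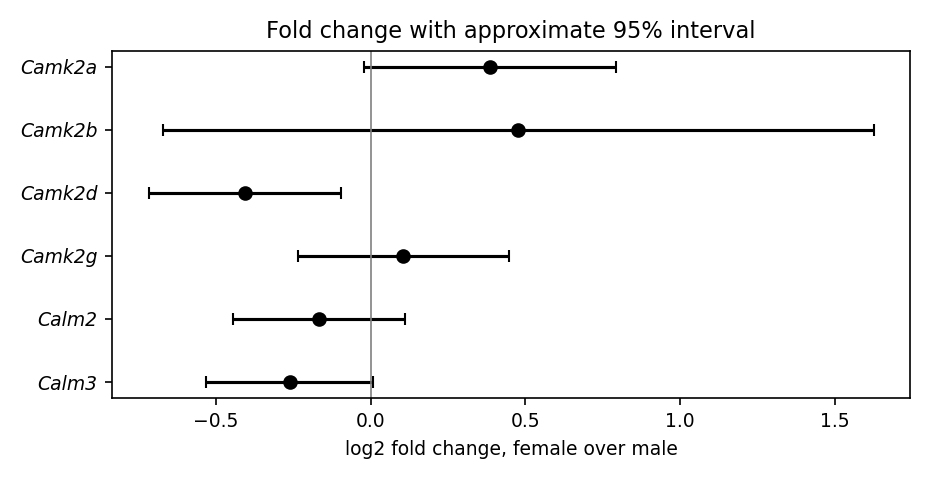
Log2 fold change (female over male) of each gene per the authors' deposited table, with an approximate 95% interval computed from the deposited p-value. The interval of Camk2d, from -0.72 to -0.09, is the only one of the 6 that does not reach 0, and that of Camk2b, the gene with the fewest reads, is the widest.

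Camk2b, the beta kinase, was the member with the fewest reads, and the only one whose reads in every library could be recovered from the means. The 5 female libraries held 22, 25, 41, 27 and 8 reads, and the 6 male libraries 33, 11, 10, 15, 21 and 10 reads. Divided by the size factors, these were 19.4, 22.6, 39.2, 27.8 and 8.23 normalized reads in females and 28.1, 9.96, 9.52, 15.5, 25.6 and 12.3 in males. The lowest library of all was female and so was the highest, and the range of the males lay inside that of the females. The mean was 23.4 ± 11.4 normalized reads in females (SD, n = 5) and 16.8 ± 8.10 in males (SD, n = 6). On log2 of the normalized reads plus 1 the difference was 0.42, with an exact permutation p = 0.342 (two-sided). The deposited log2 fold change was 0.48 with an adjusted p of 0.696 from DESeq, and its approximate interval ran from -0.67 to 1.63. With 123 reads in all females and 100 in all males, and the spread between libraries given above, this difference was not told apart from 0.

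The libraries also gave a measure of which other genes varied like Camk2b. Among 898 other genes with recovered reads and a mean of 10 or more, the 3 with the highest Pearson correlation to it over the 11 libraries were Dusp15 (r = 0.83), Tfcp2l1 (r = 0.83) and Cyfip2 (r = 0.82), on log2 of normalized reads plus 1. These are the top values among many genes with few reads and are given as a description only.

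**Figure D3:**
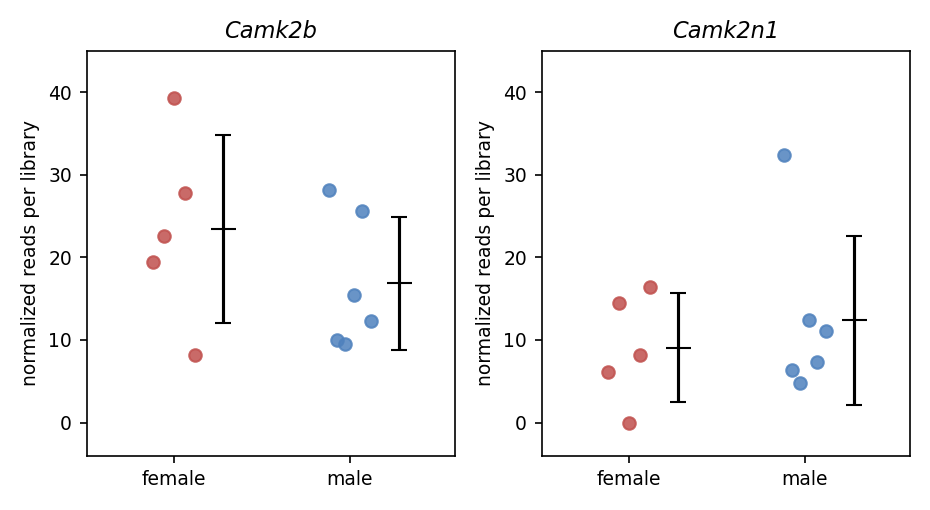
Normalized reads per library for Camk2b (left) and the CaMKII inhibitor gene Camk2n1 (right), in 5 female (red) and 6 male (blue) libraries, with the mean and SD as a black bar. The sexes overlap for both genes, and a single male library with 32.4 normalized reads stands above the others for Camk2n1.

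Camk2d supplied most of the reads of the kinase family in both sexes. Its share of the summed means of the 4 kinase genes was 64.7% in females and 73.2% in males. The share of Camk2g was 27.3% in females and 21.7% in males, that of Camk2a 7.33% in females and 4.78% in males, and that of Camk2b 0.636% in females and 0.390% in males. These are shares of normalized counts, not corrected for transcript length, so they do not rank the transcripts by number of molecules. The ratio of Camk2d to Camk2g was 2.37 in females and 3.38 in males. The quotient of these ratios, 0.701, does not depend on the length of either transcript as long as each gene's splicing is alike in the sexes. It could not be tested, since it needs both genes in the same library. The summed mean of the 4 genes was 3686 in females and 4319 in males, a fold of 0.853, and without Camk2d it was 1301 in females and 1159 in males, a fold of 1.12.

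**Figure D4:**
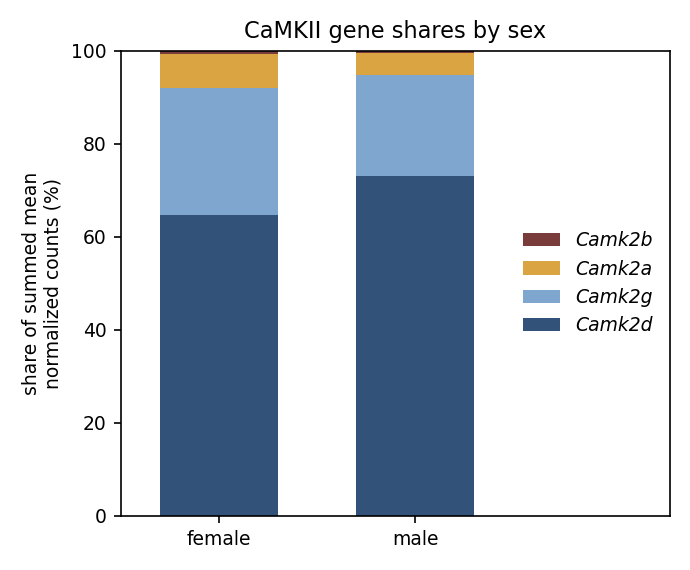
Share of each kinase gene in the summed mean normalized counts of Camk2a, Camk2b, Camk2d and Camk2g, in females (left bar) and males (right bar), with no correction for transcript length. Camk2d makes up 64.7% in females and 73.2% in males, and the other 3 genes have larger shares in females.

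The 2 calmodulin genes had higher counts than any of the 4 kinase genes, with no correction for length. Calm3 had a mean normalized count of 6744 in females and 8083 in males per the authors' deposited table, a fold of 0.834. Its log2 fold change of -0.26 had an approximate 95% interval from -0.53 to 0.01, with an adjusted p of 0.203 from DESeq. Calm2 had a mean of 4042 in females and 4535 in males per the authors' deposited table. Its log2 fold change was -0.17, with an approximate interval from -0.44 to 0.11 and an adjusted p of 0.513 from DESeq. Calm2 took 37.5% of the summed means of these 2 genes in females and 35.9% in males, and the sum itself was 10786 in females and 12618 in males, a fold of 0.855. Calmodulin genes have close processed copies in the rat genome, and how reads that match several places were counted was not stated in the labels or the table, so the values of Calm2 and Calm3 carry that uncertainty.

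Genes that act with CaMKII and calmodulin were taken from 6 lists of 94 genes in all, 88 of them with reads. Of these 88, 20 were called per the authors' deposited table (22.7%, against 14.5% of all genes). In females 9 were higher and 11 lower, where 6.71% of all genes were higher and 7.76% lower. Their median log2 fold change was -0.06, beside -0.01 for the 12315 genes with reads in both sexes. All 20 called genes had a mean of at least 50, among 64 genes of the lists at that level (31.2%, against 20.5% of all genes at that level). These shares were not compared by a test, and the lists were chosen with earlier results of these data known.

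All 4 measured genes of calcineurin, the phosphatase that calmodulin activates and the enzyme that dephosphorylates NFAT, were lower in females. Among all genes 7.76% were lower. The catalytic subunit gene Ppp3ca had a mean normalized count of 1029 in females and 1587 in males per the authors' deposited table, a fold of 0.649 with an adjusted p of 0.0211 from DESeq. Ppp3r1, the calcium-binding regulatory subunit, had means of 1326 in females and 2034 in males, a fold of 0.652 with an adjusted p of 0.0119 per the authors' deposited table. Ppp3cc and Ppp3cb had folds of 0.748 and 0.765 with adjusted p-values of 0.0290 and 0.0499 per the authors' deposited table. Their log2 fold changes, -0.42 and -0.39, were close to the -0.41 of Camk2d, which missed the threshold. The list median was -0.52. The 6 measured fibroblast markers had folds below 1 as well, with 3 of them called, and their part in the calcineurin values was not tested.

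Among inhibitors and phosphatases of CaMKII, 1 of 10 genes was higher in females and 2 were lower, with a list median of -0.34 on the log2 scale. Among all genes 6.71% were higher and 7.76% lower. The 3 catalytic subunit genes of protein phosphatase 1 were divided. Ppp1ca had a fold of 1.33 (DESeq adjusted p = 0.0224), whereas Ppp1cb and Ppp1cc had folds of 0.610 and 0.766, with adjusted p-values of 0.0290 and 0.0377 per the authors' deposited table. Ppp2ca, a catalytic subunit gene of protein phosphatase 2A, had a fold of 0.791 and an adjusted p of 0.0680 there. The list also holds Ppm1k, best known as the phosphatase of the branched-chain ketoacid dehydrogenase. Camk2n1, which encodes a peptide inhibitor of the activated kinase, had 7, 16, 0, 8 and 16 reads in the 5 female libraries and 38, 7, 5, 12, 6 and 9 reads in the 6 male libraries. It averaged 9.07 ± 6.62 normalized reads in females (SD, n = 5) and 12.4 ± 10.2 in males (SD, n = 6). The sexes overlapped, and on log2 of normalized reads plus 1 the difference was -0.65 with an exact permutation p = 0.494 (two-sided), the second of 2 genes tested in this way. Without the female library that held no read this log2 difference was 0.055, so its direction on that scale rests on that library. The difference of the means was not recomputed without single libraries, and the male mean includes the library with 38 reads.

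Of 20 measured kinases that calmodulin controls, or that are related to these, 2 were higher and 1 lower in females, with a list median of -0.02. Dapk3, a death-associated protein kinase that itself lacks the calmodulin-binding segment of its relatives, had a fold of 1.75 per the authors' deposited table. Phosphorylase kinase, which starts glycogen breakdown and holds calmodulin as a subunit, was divided, since its catalytic subunit gene Phkg1 had a fold of 1.49 and its beta subunit gene Phkb one of 0.766 per the authors' deposited table. The adjusted p-values from DESeq were 0.0126 for Dapk3, 0.0102 for Phkg1 and 0.0468 for Phkb. Stk17b, next by p-value among genes of the list with a mean of 10 or more, had a fold of 0.768 with an adjusted p of 0.264 per the authors' deposited table.

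Of 22 other calmodulin effectors, 2 were higher and 1 lower in females, where 6.71% of all genes were higher and 7.76% lower. The list median was -0.01 on the log2 scale. Over the 13 genes of the list with a mean of at least 50 it was -0.35, beside -0.003 for all genes at that level. Camta2, a calmodulin-binding transcription activator, had a mean normalized count of 678 in females and 416 in males, a fold of 1.63 with an adjusted p of 0.00230 per the authors' deposited table. Nos3, the endothelial nitric oxide synthase, had a fold of 1.48 with an adjusted p of 0.0358 there. The endothelial marker Vwf was higher in females too, and the other 5 endothelial markers were not called. Their part in the Nos3 value was not tested. Atp2b2, a plasma membrane calcium pump that calmodulin activates, had a mean of 451 in females and 796 in males, a fold of 0.566 with an adjusted p of 0.0438 per the authors' deposited table. Kcnq1, a potassium channel that binds calmodulin, had a fold of 1.30 and an adjusted p of 0.0651 there.

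Of 13 measured genes that bind, buffer or anchor calmodulin or CaMKII, or modify the kinase, none was higher and 2 were lower in females. Among all genes 6.71% were higher and 7.76% lower. The list median was -0.20 on the log2 scale. The 2 lower genes belong to the striatins, calmodulin-binding scaffolds of protein phosphatase 2A. Strn3 had a mean normalized count of 3789 in females and 6292 in males, a fold of 0.602 with an adjusted p of 0.00744 per the authors' deposited table. Strn had a fold of 0.707 with an adjusted p of 0.0247 there, and Strn4, the remaining striatin, one of 1.30 with an adjusted p of 0.0983.

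Among the lists of genes around CaMKII and calmodulin, the substrates of CaMKII had the highest median, 0.12 on the log2 scale. The 6 measured cardiac myocyte markers had a median of 0.24, with 4 folds above 1 and 2 below. Ryr2 and Pln are in both lists, and the part of myocyte content in the substrate values was not tested. Of 19 measured substrate genes 4 were higher in females and 1 was lower, where 6.71% of all genes were higher and 7.76% lower. Of the 19 genes 18 had a mean of at least 50, a level at which 20.5% of all genes were called. Hdac5, a class IIa histone deacetylase that leaves the nucleus when calcium-dependent kinases phosphorylate it, had a mean normalized count of 3141 in females and 2021 in males, a fold of 1.55 with an adjusted p of 5.9e-04 per the authors' deposited table. Ryr2, the calcium release channel of the sarcoplasmic reticulum and also 1 of the myocyte markers given above, had a fold of 1.30 with an adjusted p of 0.0491 per the authors' deposited table. Ikbkb, a kinase of the NF-kappaB pathway, had a fold of 1.42 (DESeq adjusted p = 0.0411) and the transcription factor gene Creb1 one of 0.672 (DESeq adjusted p = 0.0459) per the authors' deposited table. Pln, which encodes phospholamban, had a log2 fold change of -0.20 (DESeq adjusted p = 0.376 per the authors' deposited table); as the textbook substrate it is mentioned here although no rule named it, with its value known.

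**Figure D5:**
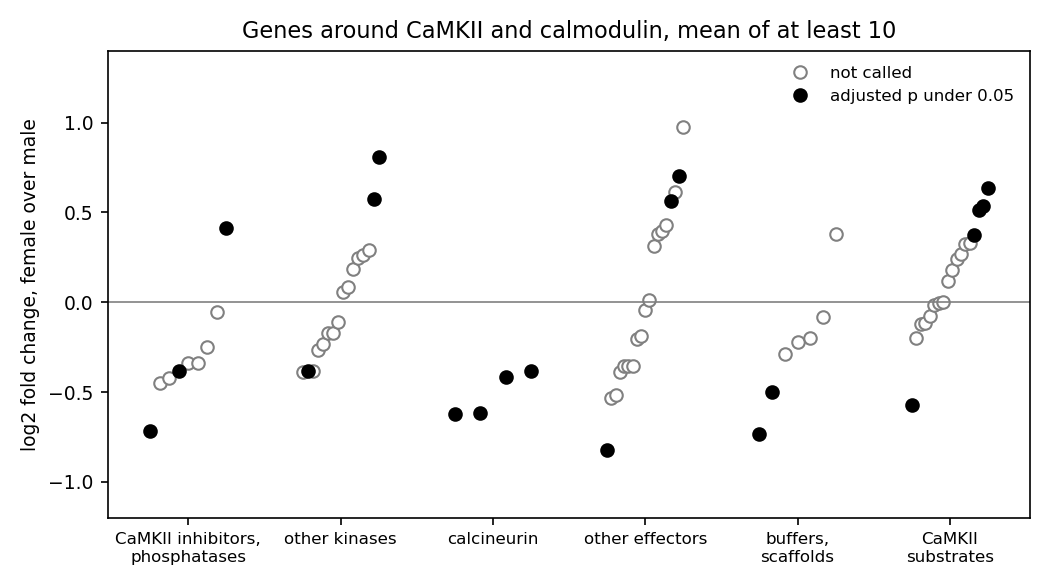
Log2 fold change (female over male) of the genes around CaMKII and calmodulin with a mean of at least 10, by list, with genes called at an adjusted p under 0.05 filled. All 4 calcineurin genes lie below 0 and are called, and 4 of the 5 called CaMKII substrates lie above 0.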

How the data were processed

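Per the submitters' processing notes, DESeq, HTSeq 0.6.1, TopHat2 2.0.12, Trimmomatic 0.32 and FastQC were used with rn6, in an order and with settings not given in the sources used here, nor whether reads were counted by strand. Per the labels, each library was made from 650 ng of RNA of an integrity number of 9 or more. The deposited table gives normalized counts averaged by group (unit signal), their ratio as a fold, its log2 value, and p-values with adjusted values, all by the authors. Groups A and B were read as the 6 males and the 5 females because the overall mean equalled 6 parts A and 5 parts B in 13346 of 13346 genes with reads.

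No new fit across genes was made. The reads in each library were worked out from the full digits of the group means (numpy 2.4.6, numba 0.67.0) for male means up to 30 and female means up to 100, with exactly 1 solution in 3242 of 3242 and 4487 of 4487 genes, and tested on simulated data. Libraries carry no replicate number and are listed by falling size factor. Exact permutation tests used scipy 1.17.1. Reads of 1 library are not independent molecules, and read totals alone do not give the spread between animals. The exact permutation tests regrouped whole libraries and so took that spread into account.

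Named genes were all members and, in each list, every called gene, then, among genes with a mean of 10 or more, those of smallest p, up to 4. Some genes that this rule or the lists name are not reported here. Members and lists were chosen with earlier results of these data known.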

Additional observations from a re-analysis of the deposited data

Results flagged for a closer look

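Camk2n1, the gene of a CaMKII inhibitor peptide, had 32.4 normalized reads in its highest male library, while the other 5 male libraries lay between 4.76 and 12.4. The gap to the next library was 0.724 of the whole male range, above Dixon's 95% limit for 6 samples. Chance flags about 1 in 20 groups if the values are normally distributed, which was not checked for these low counts, and 4 groups were looked at. The same library had the highest Camk2b value among the males, 28.1 normalized reads. Without it the log2 difference of Camk2n1 was -0.33 (female minus male), with an exact permutation p = 0.825 (two-sided).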

How the results depend on the processing

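The 6 members kept the direction of their fold change under every scaling and pseudocount tried. Camk2d, with a log2 fold change of -0.41, had an adjusted p of 0.0520 when genes with a mean under 10 were left out and passed with 0.0465 when those under 50 were, since fewer genes were tested. The number of members called was thus 1 in the last case, and it was 1 at an adjusted p under 0.1. Rescaling to equal summed means over all genes moved the median log2 fold change by 0.15, and the log2 fold changes were then -0.26 for Camk2d, -0.11 for Calm3, -0.017 for Calm2, 0.26 for Camk2g, 0.54 for Camk2a and 0.63 for Camk2b. With the rows that carry an Ensembl identifier alone left out of the sums, that of Camk2g was 0.044. All 20 called genes of the lists kept their direction under each scaling. At an adjusted p under 0.01, 4 of these genes were called.

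Leaving out each library in turn, the log2 difference of Camk2b ran from 0.20 to 0.73, with exact permutation p-values from 0.0857 to 0.648. That of Camk2n1 ran from -0.98 to 0.055, its value without the third female library, the one with no read. No paired analysis was possible because the table holds no value for a numbered replicate. Shares per kilobase were not run, as no transcript length was at hand. For 5 of the 6 members no library could be left out, so whether 1 animal decides a value is unknown.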
